A study of Mus musculus with 6 samples.

Results

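Counts of 48 mouse genes of TGF-beta, activin and bone morphogenetic protein (BMP) signalling were described in satellite cells, which regenerate skeletal muscle. The genes were taken by symbol from a list of ligands, receptors, SMADs, inhibitors, secreted antagonists, latent binding proteins and Id target genes, and all 48 were found among the 39059 genes of the count files. Of these, 47 passed the filter on low counts. The exception was Grem1. The study set 3 libraries from Lmna Δ8-11 -/- mice (HOM) beside 3 from Lmna Δ8-11 +/+ mice (WT), all on the C57BL/6J background and at postnatal day 19. The allele lacks exons 8 to 11 of Lmna, the gene of the nuclear lamins A and C, and is carried by the whole animal, not only by the sorted cells. Satellite cells were freshly sorted from hind-limb muscle, and total RNA was sequenced after removal of ribosomal RNA. The labels state 3 mice for each condition but do not tie a library to a mouse, so p-values measure the spread between libraries, which may in part be technical.

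Ligands of the TGF-beta family bind a pair of receptor classes at the cell surface: a type II receptor phosphorylates a type I receptor, which phosphorylates SMAD proteins. TGF-beta, activin and myostatin act mainly through SMAD2 and SMAD3, BMPs mainly through SMAD1, SMAD5 and SMAD9, and SMAD4 is shared by both branches. In muscle, myostatin and TGF-beta restrain growth and differentiation, while BMP signals are known to keep satellite cells and myoblasts from differentiating, in part through the Id proteins.

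Gene totals were 7234298 to 9552751 reads in HOM libraries and 6613636 to 8426578 reads in WT libraries. Lmna, the targeted gene (chromosome 3, 88480147 to 88509956, minus strand, GRCm38), averaged 421 ± 40.0 CPM (read counts scaled to library size) in HOM cells and 946 ± 108 CPM in WT cells (SD, n = 3 each), a log2 fold change of -1.17 (SE 0.14, edgeR quasi-likelihood adjusted p = 0.0010). All 10 satellite cell markers examined were detected in every library; their summed level was 1266 to 1893 CPM in HOM libraries and 2320 to 2355 CPM in WT libraries, and 7 of the 10 were lower in HOM cells. Markers of other cells were detected as well. Smooth muscle and pericyte markers summed to 13397 to 14132 CPM in HOM libraries and 12140 to 17143 CPM in WT libraries. Schwann and glial markers summed to 4281 to 5926 CPM in HOM libraries and 5483 to 6970 CPM in WT libraries. Each list holds different genes and its sum is not scaled to gene length, so sums of different lists do not measure shares of cells. Of the 12 smooth muscle and pericyte markers 4 were higher and 1 lower in HOM cells, and of the 10 Schwann and glial markers 4 were higher and 4 lower. Endothelial markers summed to 498 to 864 CPM in HOM libraries and 569 to 884 CPM in WT libraries, and macrophage markers to 36.6 to 57.6 CPM in HOM libraries and 39.7 to 68.6 CPM in WT libraries. HOM replicate 2 and WT replicates 2 and 3 held 3074 to 4831 reads of Y-linked genes, against 0 to 3 reads in the other libraries.

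Among the 47 tested genes, 3 rose and 10 fell in HOM cells at an adjusted p of 0.05. The called share was 27.7%, against a background of 21.1% of all 14099 tested genes. By direction, 21.3% of the tested genes of the pathway fell, against 11.5% of all tested genes, and 6.38% rose, against 9.67%. Their median log2 fold change was -0.13, against -0.0038 over all tested genes. The values of 24 of the 47 genes (51.1%) did not overlap between the genotypes, against 40.7% of all tested genes. The genes that rose were Acvr1c, Smurf1 and Fstl3, and the genes that fell were Tgfb2, Tgfb3, Gdf11, Bmp5, Bmp6, Bmpr1b, Skil, Fstl1, Ltbp2 and Ltbp4.

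**Figure D1:**
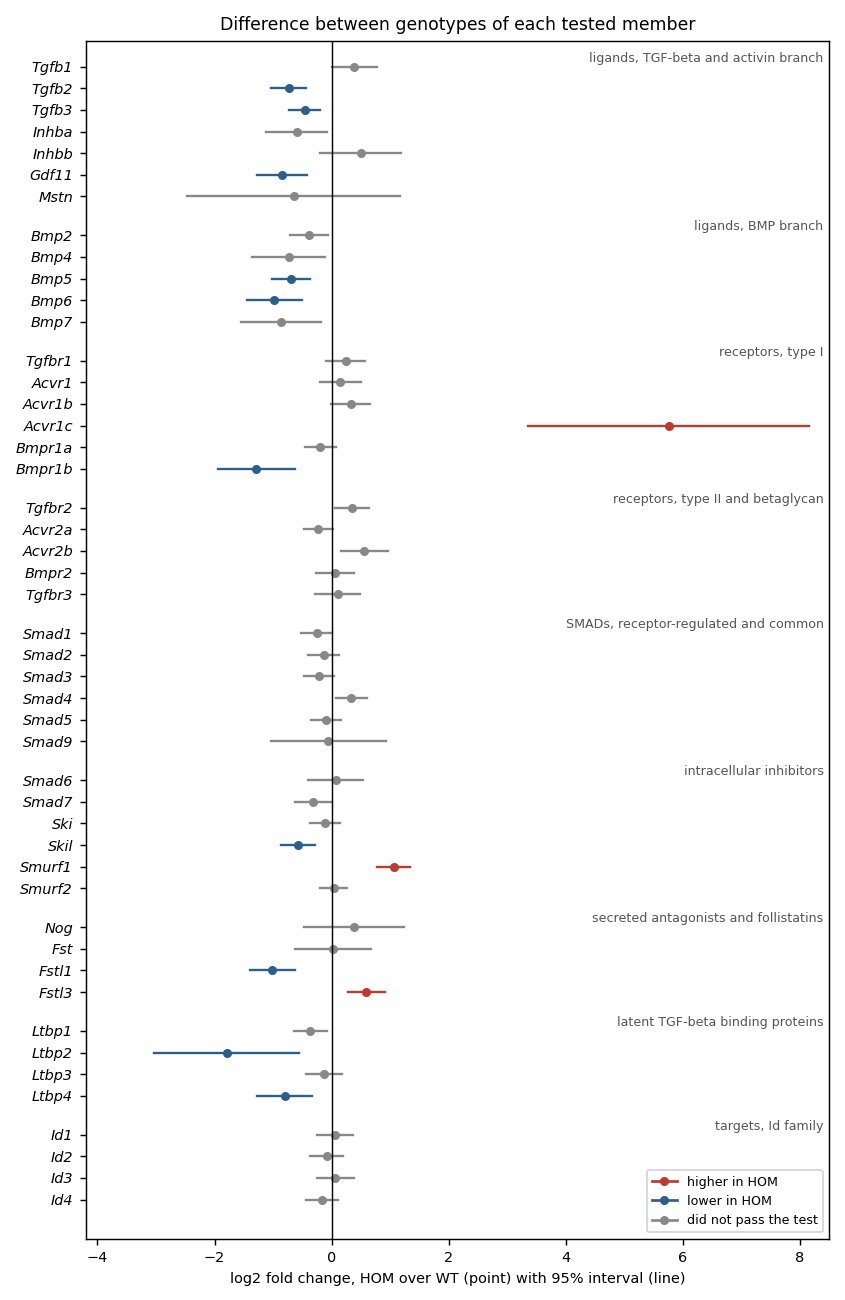
Log2 fold changes (HOM over WT) of the 47 tested genes, grouped by role, as points with 95% intervals as lines; red marks genes higher in HOM cells, blue genes lower, and grey genes that did not pass the test. Ligands and latent binding proteins lie mostly left of 0 and the SMADs and Id genes close to it, and Acvr1c lies far to the right at 5.76.

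Calls among the ligands were all in the lower direction, and the Id target genes had none. Of 12 ligands, 5 fell and 0 rose, with a median log2 fold change of -0.67; 10 of the 12 had a negative value. Of 4 latent binding proteins, 2 fell and 0 rose, with a median of -0.59. Of 17 receptors and receptor-regulated or common SMADs, 1 rose and 1 fell, with a median of 0.06. Of 4 Id target genes, 0 were called, with a median of -0.02. Called shares were 41.7% for ligands, 50% for latent binding proteins and 11.8% for receptors and SMADs. Over all tested genes the share was 21.1%, with 11.5% lower and 9.67% higher. A list of 4 genes with 0 calls cannot be told apart from that share. These counts describe a list and were not tested as sets.

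The upstream sequence of called genes was read from the RefSeq promoter table (GRCm38.p6), which matched 37 of the 48 genes. It was searched on both strands, in the 250 bases before the annotated start, for CAGACA, a form of the SMAD-binding element that the SMADs of TGF-beta use, and for GGCGCC, a GC-rich element bound by BMP SMADs. CAGACA was present for 8 of 37 genes (21.6%), against 19.3% of 27025 genes in the table. It was present for 5 of the 11 called genes with a window (45.5%) and 3 of the 26 others (11.5%). These counts, like those of GGCGCC below, are small, and the differences were not tested. The 27025 genes were not limited to genes tested here, and whole windows were searched, exon bases included. A gene counted if any of its windows held the motif, and the 11 called genes had 16 windows and the 26 others 30. By window the shares were 31.2% and 10%, against 17.1% in the table. GGCGCC was present for 11 of 37 genes (29.7%), against 10.8%. Of these, 1 was among the 11 called genes (9.09%) and 10 among the 26 others (38.5%), which include the untested Grem1. Stretches free of exon bases follow for the genes that rose and hold CAGACA, for a ligand that fell and holds it, and for Id4, which holds GGCGCC and did not pass the test. Each is written 5′ to 3′ on the strand of the gene, with the motif, or its reverse complement, in capitals. They lie at chr5:144965848-144966080 (minus strand) for Smurf1, chr10:79777024-79777271 (plus strand) for Fstl3, chr9:75775115-75775363 (plus strand) for Bmp5 and chr13:48260866-48261115 (plus strand) for Id4.
Smurf1: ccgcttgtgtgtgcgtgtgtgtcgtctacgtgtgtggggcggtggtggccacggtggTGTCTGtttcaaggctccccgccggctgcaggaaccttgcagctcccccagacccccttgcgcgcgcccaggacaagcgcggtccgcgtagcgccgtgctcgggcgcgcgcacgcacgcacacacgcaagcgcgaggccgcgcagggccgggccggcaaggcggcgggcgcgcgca
Fstl3: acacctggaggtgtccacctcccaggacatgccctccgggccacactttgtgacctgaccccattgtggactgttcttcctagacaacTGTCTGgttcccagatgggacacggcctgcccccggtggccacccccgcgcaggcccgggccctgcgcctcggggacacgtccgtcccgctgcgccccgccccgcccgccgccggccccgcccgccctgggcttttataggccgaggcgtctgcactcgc
Bmp5: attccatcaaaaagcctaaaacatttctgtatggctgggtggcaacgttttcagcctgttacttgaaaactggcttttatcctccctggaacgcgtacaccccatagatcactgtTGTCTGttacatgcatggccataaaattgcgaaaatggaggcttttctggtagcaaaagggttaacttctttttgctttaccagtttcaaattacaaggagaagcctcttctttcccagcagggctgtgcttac
Id4: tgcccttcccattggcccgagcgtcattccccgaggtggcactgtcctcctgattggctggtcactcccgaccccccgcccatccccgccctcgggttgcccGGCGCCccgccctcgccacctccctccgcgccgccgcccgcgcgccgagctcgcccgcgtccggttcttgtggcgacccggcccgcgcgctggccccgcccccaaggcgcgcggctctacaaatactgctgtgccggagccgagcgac
The motif begins 193 bases before the start for Smurf1, 162 for Fstl3, 135 for Bmp5 and 148 for Id4. Genes that rose and genes that fell both hold CAGACA, and a match is a string of letters, not a measured binding site.

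Among the TGF-beta ligands, secreted in a latent form, Tgfb2 and Tgfb3 fell and Tgfb1 did not pass the test. Tgfb2 (chromosome 1, 186622792 to 186705989, minus strand) stood at 28.0, 37.7 and 32.6 CPM in HOM libraries 1 to 3, against 56.2, 56.6 and 51.4 CPM in WT libraries 1 to 3. All HOM libraries lay below all WT libraries. Means were 32.8 ± 4.89 CPM in HOM cells and 54.8 ± 2.89 CPM in WT cells (SD, n = 3 each), a log2 fold change of -0.74 (SE 0.13, edgeR adjusted p = 0.0053).

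Tgfb3 (chromosome 12, 86056745 to 86079041, minus strand) stood at 151, 158 and 142 CPM in HOM libraries, against 198, 232 and 192 CPM in WT libraries. The groups did not overlap. Tgfb3 had a log2 fold change of -0.46 (SE 0.12, edgeR adjusted p = 0.0221), and the call was lost without HOM replicate 1 or 3 or without WT replicate 1 or 2 (adjusted p of 0.0561 to 0.0925). It was also lost with a term for Y-linked reads, so it held in 10 of 15 alternatives. Tgfb1, the TGF-beta best known in inflammation and fibrosis, had 14.97 to 15.6 CPM in HOM libraries and 9.54 to 13.2 CPM in WT libraries. These ranges did not overlap, but the log2 fold change of 0.39 (95% interval 0.01 to 0.77) did not pass the adjustment (edgeR adjusted p = 0.127). Per kilobase of merged exons, Tgfb3 held 82.9 to 85.1% of the summed level of the 3 TGF-beta genes in HOM libraries and 82.9 to 85.4% in WT libraries, so its share overlapped between the genotypes. Shares of the other members of the trio did not overlap: Tgfb1 held 5.48 to 5.94% in HOM libraries and 2.36 to 3.83% in WT libraries, and Tgfb2 9.22 to 11.6% in HOM libraries and 12.2 to 13.7% in WT libraries.

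The activin and myostatin branch was represented by 4 ligands. Gdf11, a close relative of myostatin (chromosome 10, 128882295 to 128891718, minus strand), stood at 11.2, 19.6 and 14.0 CPM in HOM libraries, against 28.1, 27.7 and 25.6 CPM in WT libraries. The groups did not overlap, and HOM replicate 2 was the nearest to WT. Gdf11 had a log2 fold change of -0.85 (SE 0.19, edgeR adjusted p = 0.0135); the adjusted p was 0.0526 without HOM replicate 3 and 0.0514 without WT replicate 1.

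Mstn, which encodes myostatin, was near the limit of detection, with 37 reads over the HOM libraries and 52 over the WT libraries. Its values were 0.140, 3.71 and 0.131 CPM in HOM libraries and 2.78, 2.54 and 1.52 CPM in WT libraries, so HOM replicate 2 lay above all WT libraries and HOM replicates 1 and 3 far below them. Its log2 fold change was -0.65 (SE 0.82, edgeR adjusted p = 0.598), and -3.92 without HOM replicate 2 (adjusted p = 0.0015); limma-voom with sample weights also called Mstn lower. Inhba, which encodes a subunit of activin A, had 5.73 to 7.63 CPM in HOM libraries and 7.41 to 11.9 CPM in WT libraries (edgeR adjusted p = 0.0922). Inhbb, which encodes a subunit of activin B, had 13.7, 34.99 and 15.4 CPM in HOM libraries and 14.6 to 16.2 CPM in WT libraries; HOM replicate 2 alone was high. Its log2 fold change was 0.50 (edgeR adjusted p = 0.277), and -0.07 without that library.

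Bmp5 and Bmp6, BMP ligands of the same subfamily as Bmp7, fell in HOM cells, and the calls held in all 15 alternative fits. Bmp5 (chromosome 9, 75775364 to 75900310, plus strand) stood at 16.8, 19.0 and 15.3 CPM in HOM libraries, against 28.9, 29.3 and 24.4 CPM in WT libraries. Its log2 fold change was -0.69 (SE 0.15, edgeR adjusted p = 0.0101). Bmp6 (chromosome 13, 38345107 to 38500302, plus strand) stood at 17.8, 33.7 and 24.3 CPM in HOM libraries, against 48.4, 58.0 and 44.2 CPM in WT libraries. For both genes every HOM library lay below every WT library. The log2 fold change of Bmp6 was -0.98 (SE 0.21, edgeR adjusted p = 0.0104).

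The other 3 BMP ligands had negative fold changes that did not pass the edgeR test; DESeq2 called Bmp4 lower, and limma-voom called Bmp2, Bmp4 and Bmp7 lower. Bmp2, the most abundant BMP ligand per kilobase, stood at 29.7, 44.1 and 37.3 CPM in HOM libraries, against 46.8, 47.9 and 50.8 CPM in WT libraries (log2 fold change -0.38, SE 0.15, edgeR adjusted p = 0.0904). Bmp4 stood at 10.2, 23.7 and 11.0 CPM in HOM libraries, against 27.1, 25.9 and 22.7 CPM in WT libraries. HOM replicate 2 of Bmp4 lay within the WT range and the other HOM libraries far below it. Bmp4 had a log2 fold change of -0.74 (edgeR adjusted p = 0.0883), and -1.25 without HOM replicate 2 (adjusted p = 0.00030). Bmp7 had 2.38 to 3.92 CPM in HOM libraries and 3.66 to 6.71 CPM in WT libraries, with a log2 fold change of -0.86 (edgeR adjusted p = 0.0699; 0.0332 without HOM replicate 2 and 0.0387 without WT replicate 2). Bmp2 also passed without HOM replicate 2 (log2 fold change -0.53, adjusted p = 0.0166).

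**Figure D2:**
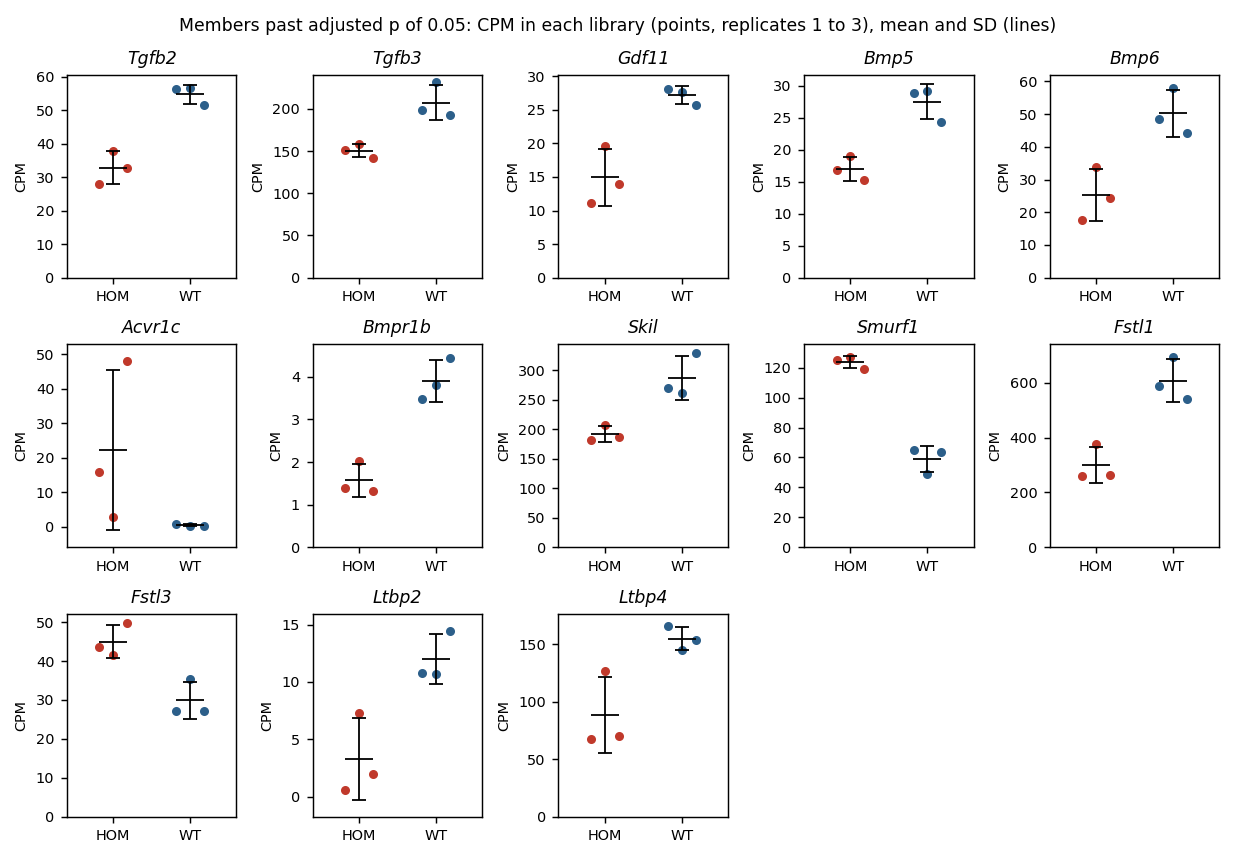
CPM per library of the 13 called genes, 1 panel a gene, with HOM left of WT, a point per library and lines at the mean and SD. In each panel the HOM and WT points do not overlap; HOM replicate 2 is the highest HOM point for all 10 genes that fell.

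Markers of connective tissue cells were also lower in HOM libraries. The summed level of 10 markers of fibro-adipogenic progenitors, the connective tissue progenitors of muscle, was 1114 to 1377 CPM in HOM libraries and 1903 to 2013 CPM in WT libraries, with 6 of 10 lower and 1 higher. Tenocyte markers summed to 147 to 257 CPM in HOM libraries and 285 to 322 CPM in WT libraries, with 3 of 8 lower and 0 higher. No marker of these lists, nor of the satellite cell list, was at 0 in a whole genotype. In RNA pooled from many cells, fewer cells of a type and less RNA per cell cannot be told apart; the part of these markers in the ligand results was not tested.

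**Figure D3:**
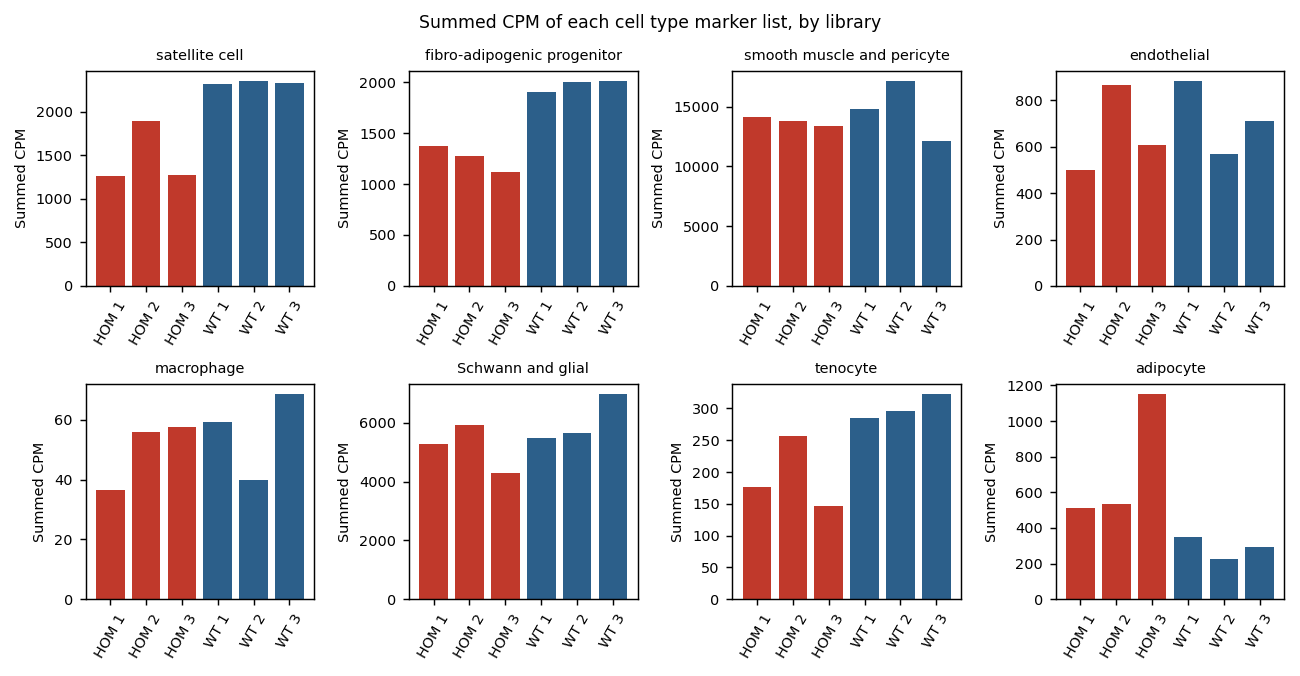
Summed CPM of 8 cell type marker lists, 1 panel a list and 1 bar a library, HOM (red) left of WT (blue), each panel on its own linear axis. The satellite cell, fibro-adipogenic and tenocyte sums of HOM libraries lie below those of WT libraries, and the adipocyte sums above them.

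The latent TGF-beta binding proteins, which tether latent TGF-beta to the extracellular matrix, gave 2 calls. Each was kept in only 1 of the 6 fits that left out a library. Ltbp2, a family member that does not bind latent TGF-beta (chromosome 12, 84783212 to 84876532, minus strand), stood at 0.559, 7.32 and 1.96 CPM in HOM libraries, against 10.8, 10.7 and 14.5 CPM in WT libraries. The HOM libraries spread over an order of magnitude and all lay below the WT libraries. Ltbp2 had a log2 fold change of -1.80 (SE 0.56, edgeR adjusted p = 0.0445); it was -3.21 without HOM replicate 2 and -1.33 without HOM replicate 1 (adjusted p = 0.0760), and the call was lost in 6 of 15 alternatives, DESeq2 among them (adjusted p = 0.149).

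Ltbp4 (chromosome 7, 27305136 to 27337692, minus strand), a known modifier of muscular dystrophy in mice, stood at 68.0, 127 and 70.6 CPM in HOM libraries, against 165, 145 and 154 CPM in WT libraries. HOM replicate 2 lay between the other HOM libraries and the WT libraries. Its log2 fold change was -0.81 (SE 0.21, edgeR adjusted p = 0.0248), and the call was lost when any library but HOM replicate 2 was left out (adjusted p of 0.0571 to 0.0900). Ltbp1, the most abundant of those not called, stood at 264, 329 and 276 CPM in HOM libraries, against 395, 365 and 360 CPM in WT libraries (log2 fold change -0.36, SE 0.13, edgeR adjusted p = 0.0690; 0.0234 without HOM replicate 2), and DESeq2 and limma-voom called it lower. Ltbp3 had a log2 fold change of -0.13 (adjusted p = 0.534).

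HOM replicate 2 was the highest of the HOM libraries for 10 of the 10 genes that fell. The same held for 70.4% of all genes that fell and for 36.6% of all tested genes. This library had the highest satellite cell marker sum of the HOM group, 1893 CPM, and the highest Gm42418 level, 13027 CPM against 914 and 1044 CPM in the other HOM libraries (this gene overlaps a ribosomal RNA repeat). WT replicate 2 also had a high Gm42418 level, at 13900 CPM, against 1217 and 1797 CPM in the other WT libraries. HOM replicate 2 was also the only HOM library with many Y-linked reads. The part of these features in the results was not tested.

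Among the type I receptors, Acvr1c rose and Bmpr1b fell. Acvr1c, which encodes ALK7, a receptor for activin B and other ligands that is known mainly from fat cells (chromosome 2, 58267453 to 58357895, minus strand), had 113, 27 and 367 reads in HOM libraries, against 6, 1 and 2 reads in WT libraries. As levels these were 15.8, 2.86 and 48.04 CPM in HOM libraries and 0.694, 0.159 and 0.254 CPM in WT libraries. The groups did not overlap, though the HOM libraries differed widely among themselves. Acvr1c had a log2 fold change of 5.76 (SE 1.08, 95% interval 3.36 to 8.16, edgeR adjusted p = 0.0060). The ratio of pooled reads, scaled to library size, was 53.0 (exact 95% interval 27.7 to 117, counting error only). Without HOM replicate 3, the highest library, the log2 fold change of Acvr1c was 4.50 (adjusted p = 0.010), and the call held in all 15 alternatives.

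Adipocyte markers were also higher in HOM cells. The 10 markers summed to 509, 534 and 1151 CPM in HOM libraries 1 to 3, against 350, 225 and 291 CPM in WT libraries, and 6 of 7 tested markers rose. Cidec, a lipid droplet protein, stood at 18.3, 10.9 and 64.7 CPM in HOM libraries and 0, 0 and 0.127 CPM in WT libraries. Adiponectin (Adipoq) stood at 9.09, 6.47 and 37.2 CPM in HOM libraries and 0.231, 0.318 and 0.508 CPM in WT libraries. HOM replicate 3 was highest and HOM replicate 2 lowest for Acvr1c, Cidec and Adipoq alike. The sum over the list did not share that order: HOM replicate 1, at 509 CPM, was lowest, below HOM replicate 2 at 534 CPM. Lep, Plin1 and Retn, also on the list, were not tested, and Lep had 0 reads over the HOM libraries and 1 over the WT libraries. The part of fat cell RNA in the Acvr1c result was not tested.

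Bmpr1b, a BMP receptor known from cartilage (chromosome 3, 141837136 to 142169425, minus strand), was rare, with 39 reads over the HOM libraries and 89 over the WT libraries. It stood at 1.40, 2.01 and 1.31 CPM in HOM libraries, against 3.47, 3.82 and 4.44 CPM in WT libraries, with no overlap. Bmpr1b had a log2 fold change of -1.28 (SE 0.30, edgeR adjusted p = 0.0148), and the call was lost without HOM replicate 1 or 3 or WT replicate 3 (adjusted p of 0.0536 to 0.0610). Bmpr1a, the main BMP type I receptor in these cells by level, stood at 234, 221 and 196 CPM in HOM libraries, against 239, 245 and 261 CPM in WT libraries. Its log2 fold change was -0.19 (95% interval -0.46 to 0.07, edgeR adjusted p = 0.265).

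The remaining type I receptors did not pass the test. Tgfbr1, the TGF-beta type I receptor, had 170 to 205 CPM in HOM libraries and 138 to 193 CPM in WT libraries (log2 fold change 0.24, edgeR adjusted p = 0.279). Acvr1b, the activin type I receptor, had a log2 fold change of 0.33 (adjusted p = 0.145), and Acvr1, a BMP and activin receptor, of 0.15 (adjusted p = 0.533).

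Of the type II receptors and betaglycan, 0 of 5 were called by edgeR, 0 by DESeq2 and 1, Acvr2b, by limma-voom (adjusted p = 0.0255). Over all tested genes the called shares were 21.1%, 19.1% and 29.1%, and 5 genes are too few to tell these counts from them. Of the 5, 2 had an unadjusted edgeR p under 0.05. Acvr2b, the receptor of myostatin and activin, had 10.2 to 12.6 CPM in HOM libraries and 7.18 to 8.27 CPM in WT libraries, without overlap (log2 fold change 0.56, edgeR adjusted p = 0.0534). Tgfbr2, the TGF-beta type II receptor, had 177 to 216 CPM in HOM libraries and 131 to 161 CPM in WT libraries, also without overlap (log2 fold change 0.35, adjusted p = 0.0811). Tgfbr3, which encodes the co-receptor betaglycan, stood at 315, 344 and 255 CPM in HOM libraries, against 273, 228 and 349 CPM in WT libraries. Its ranges overlapped broadly, and the log2 fold change was 0.10 (95% interval -0.29 to 0.49, adjusted p = 0.709). Acvr2a and Bmpr2, receptors of activin and of BMPs, had log2 fold changes of -0.23 (adjusted p = 0.165) and 0.06 (adjusted p = 0.792).

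No receptor-regulated or common SMAD was called: 0 of 6 by edgeR, by DESeq2 and by limma-voom. Over all tested genes the called shares were 21.1%, 19.1% and 29.1%, and 6 genes are too few to tell 0 calls from them. Of the 6, 1 had an unadjusted edgeR p under 0.05. That gene was Smad4, the shared partner of both branches. It stood at 117, 109 and 94.1 CPM in HOM libraries, against 85.9, 77.9 and 90.3 CPM in WT libraries, without overlap. Smad4 had a log2 fold change of 0.34 (95% interval 0.07 to 0.60, edgeR adjusted p = 0.0703). Smad2 and Smad3, the SMADs of TGF-beta and activin, had log2 fold changes of -0.14 (adjusted p = 0.437) and -0.22 (adjusted p = 0.192). Smad1 and Smad5, the SMADs of BMPs, had values of -0.26 (adjusted p = 0.151) and -0.10 (adjusted p = 0.568). Smad9, with 27 reads over the HOM libraries and 26 over the WT libraries, was too rare for a comparison (log2 fold change -0.06, adjusted p = 0.942).

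**Figure D4:**
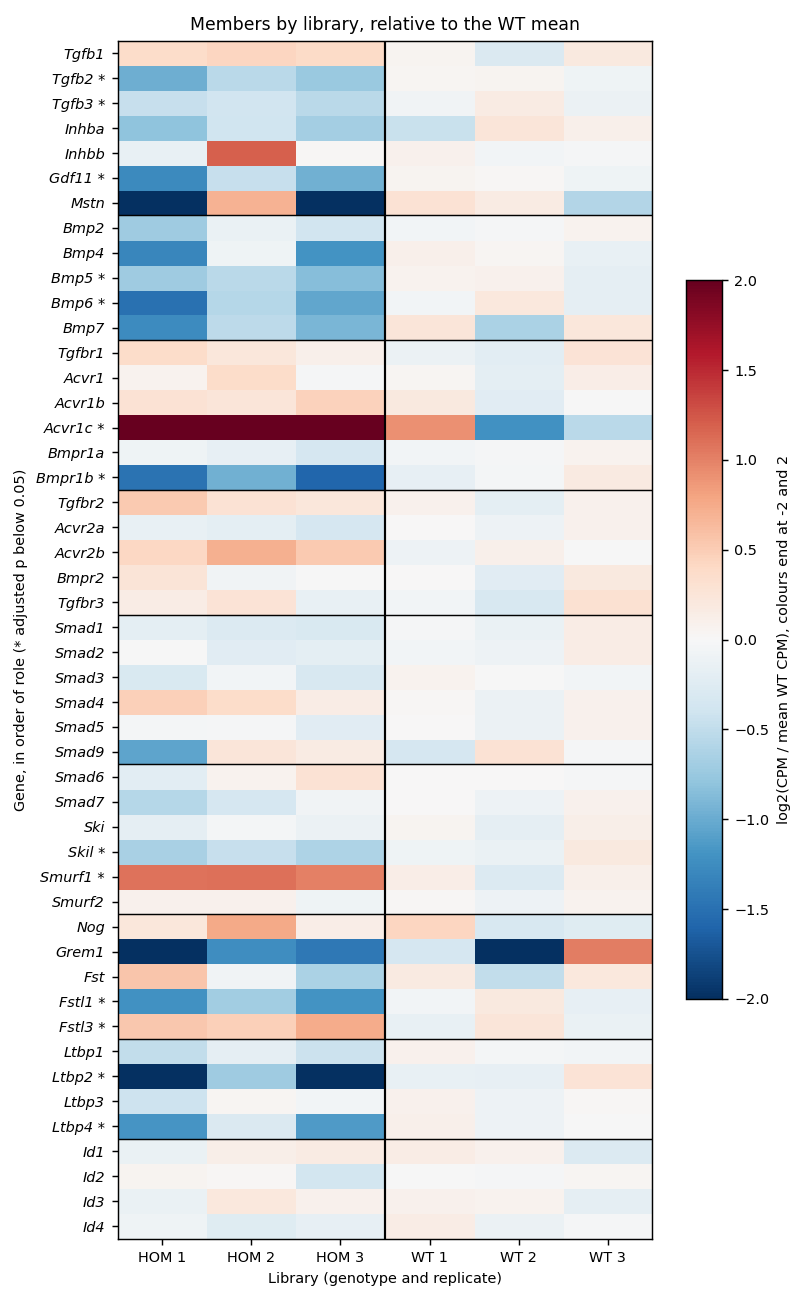
Level of each of the 48 genes in each library as the log2 ratio to that gene's WT mean (colour, ending at -2 and 2), genes grouped by role, HOM libraries left of WT libraries. Most ligands and latent binding proteins are blue (lower) in HOM replicates 1 and 3 and paler in HOM replicate 2, and Smurf1 is evenly red (higher) in the 3 HOM libraries.

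Of the intracellular inhibitors, Smurf1 rose and Skil fell, while their closest relatives did not pass the test. Smurf1, a ubiquitin ligase that targets BMP SMADs and receptors for degradation (chromosome 5, 144876495 to 144965847, minus strand), stood at 125, 127 and 119 CPM in HOM libraries, against 64.9, 49.0 and 63.5 CPM in WT libraries. The groups lay far apart and each was tight. The means were 124 ± 4.20 CPM in HOM cells and 59.1 ± 8.83 CPM in WT cells (SD, n = 3 each), a fold of 2.09 and a log2 fold change of 1.06 (SE 0.13, 95% interval 0.78 to 1.34, edgeR adjusted p = 0.00091). Over all 15 alternatives the log2 fold change was 0.92 to 1.13 and the adjusted p at most 0.0059.

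Smurf2, its paralogue, stood at 105, 105 and 94.1 CPM in HOM libraries, against 101, 92.8 and 104 CPM in WT libraries. Those ranges overlapped, and the log2 fold change was 0.03 (95% interval -0.21 to 0.27, edgeR adjusted p = 0.860). Per kilobase of merged exons, the ratio of the Smurf1 level to the Smurf2 level was 1.16, 1.17 and 1.23 in HOM libraries, against 0.622, 0.513 and 0.594 in WT libraries. Smurf1 was thus the higher of the pair in each HOM library and the lower in each WT library.

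Skil, which encodes the SMAD repressor SnoN and is itself induced by TGF-beta (chromosome 3, 31095058 to 31122577, plus strand), stood at 183, 208 and 187 CPM in HOM libraries, against 270, 261 and 329 CPM in WT libraries. The groups did not overlap. The log2 fold change was -0.58 (SE 0.13, edgeR adjusted p = 0.0134); the adjusted p was 0.0560 without HOM replicate 1 and 0.0571 without HOM replicate 3. Ski, the related repressor, stood at 156, 172 and 163 CPM in HOM libraries, against 184, 158 and 192 CPM in WT libraries, which overlapped (log2 fold change -0.12, SE 0.12, adjusted p = 0.508). The ratio of Skil to Ski per kilobase was 0.660 to 0.694 in HOM libraries and 0.845 to 0.986 in WT libraries. The inhibitory SMADs, which block the receptors and are themselves induced by the pathway, did not pass the test: Smad7 had 29.5 to 41.9 CPM in HOM libraries and 41.0 to 46.5 CPM in WT libraries (log2 fold change -0.31, adjusted p = 0.147), and Smad6 a log2 fold change of 0.07 (adjusted p = 0.847).

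Among the secreted antagonists, Fstl3 rose and the related Fstl1 fell. Fstl1, a follistatin-like glycoprotein known to bind BMPs (chromosome 16, 37776873 to 37836514, plus strand), stood at 262, 378 and 265 CPM in HOM libraries, against 588, 696 and 542 CPM in WT libraries. The groups did not overlap. The means were 301 ± 66.1 CPM in HOM cells and 609 ± 78.9 CPM in WT cells (SD, n = 3 each), a log2 fold change of -1.01 (SE 0.17, edgeR adjusted p = 0.0041) that was called in all 15 alternatives.

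Fstl3, an inhibitor of activin and myostatin (chromosome 10, 79777272 to 79782630, plus strand), stood at 43.5, 41.7 and 49.7 CPM in HOM libraries, against 27.1, 35.3 and 27.3 CPM in WT libraries. The groups did not overlap. The log2 fold change was 0.59 (SE 0.14, edgeR adjusted p = 0.0170), and the call was lost without HOM replicate 3 or without WT replicate 1 or 3 (adjusted p of 0.0596 to 0.0781). Per kilobase, the ratio of Fstl1 to Fstl3 was 2.65 to 4.51 in HOM libraries and 9.81 to 10.8 in WT libraries.

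Follistatin itself (Fst), the classical antagonist of activin and myostatin, had 7.99 to 18.04 CPM in HOM libraries and 8.74 to 14.2 CPM in WT libraries. The ranges overlapped, with a log2 fold change of 0.02 (95% interval -0.63 to 0.67, edgeR adjusted p = 0.974). Noggin (Nog), a BMP antagonist, was rare, with 39 reads over the HOM libraries and 28 over the WT libraries (log2 fold change 0.39, adjusted p = 0.502). Gremlin (Grem1), another BMP antagonist, had 14 reads over the HOM libraries and 42 over the WT libraries and was not tested; 1 WT library held most of its level, at 3.56 CPM.

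The Id genes encode inhibitors of myogenic transcription factors and are direct targets of BMP SMADs. They showed no call: 0 of 4 by edgeR, by DESeq2 and by limma-voom, and 0 at an unadjusted edgeR p under 0.05. Over all tested genes the called shares were 21.1%, 19.1% and 29.1%, and 4 genes are too few to tell 0 calls from them. Id3, the most abundant of the 48 genes per kilobase, stood at 489, 621 and 564 CPM in HOM libraries, against 566, 562 and 473 CPM in WT libraries. Its ranges overlapped, and the log2 fold change was 0.06 (95% interval -0.25 to 0.38, edgeR adjusted p = 0.777). Id3 held 66.2 to 69.8% of the summed level per kilobase of the 4 Id genes in HOM libraries and 66.6 to 68.0% in WT libraries. The intervals of the log2 fold changes ran from -0.25 to 0.36 for Id1, from -0.37 to 0.20 for Id2 and from -0.44 to 0.11 for Id4. A change of the size of that of Smurf1 lies outside each of these intervals.

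**Figure D5:**
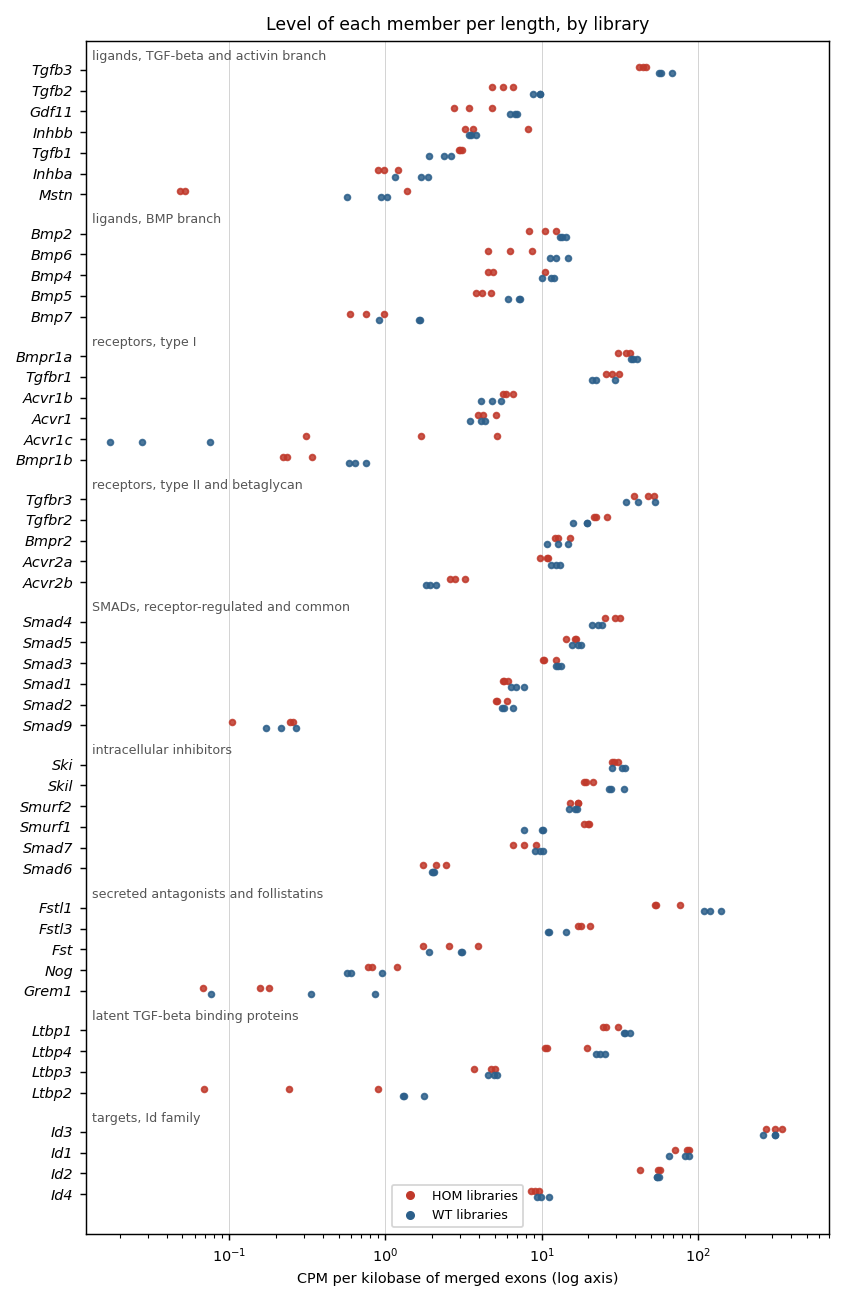
Level per kilobase of merged exons (CPM per kb, log axis) of the 48 genes, grouped by role, with a point per library, HOM in red above WT in blue. Id3 is the highest, with a mean of 311 in HOM cells and 298 in WT cells, and Fstl1 stands highest outside the Id genes, with 61.3 in HOM cells and 124 in WT cells.

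Beyond the 48 genes, 83 other pathway genes were listed by role, of which 62 were tested. Of these, 2 rose (3.23%) and 13 fell (20.97%), with a median log2 fold change of -0.09. Their called share was 24.2%, near the 21.1% of all tested genes, of which 9.67% rose and 11.5% fell. Among other ligands 4 of 6 fell. Lefty1, an antagonistic ligand of the nodal branch, averaged 0.737 ± 0.185 CPM in HOM cells and 3.10 ± 0.763 CPM in WT cells (log2 fold change -2.03, edgeR adjusted p = 0.0054), and Bmp1, named with the BMPs but a protease that cleaves procollagen and the BMP antagonist chordin, averaged 82.8 ± 22.4 CPM in HOM cells and 169 ± 13.4 CPM in WT cells (-1.02, adjusted p = 0.0042). The other ligands that fell were Gdf15 and Bmp3 (edgeR adjusted p = 0.0374 and 0.0430), each called in only 6 of 15 alternatives. Of the 6 fits that left out 1 library, 0 called Gdf15 and 1 called Bmp3.

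Of 7 other receptors and co-receptors, 2 fell: Hfe2 and Rgmb, both BMP co-receptors of the RGM family (log2 fold changes -2.13 and -0.66). Hfe2 was rare, with 14 reads over the HOM libraries and 57 over the WT libraries, and was called in 12 of 15 alternatives. Rgmb was called in 10 of 15. Of 16 other antagonists and matrix modulators, 5 fell and 0 rose. Among them were Htra1, a secreted protease known to act on TGF-beta proteins (51.7 ± 11.8 CPM in HOM cells and 103 ± 21.1 CPM in WT cells, log2 fold change -0.99, edgeR adjusted p = 0.0062), Chrdl2, a chordin-like BMP antagonist that is also on the satellite cell marker list (-1.36), and the fibrillins Fbn1 (-0.74) and Fbn2 (-1.08), which hold latent complexes in the matrix. Of 9 genes of latent TGF-beta activation, 1 fell, the protease gene Mmp2 (-1.07, adjusted p = 0.0207). Of 24 other intracellular genes, Tob1 (0.67), which encodes a repressor of BMP signalling, and Ctdsp2 (0.50), which encodes a SMAD phosphatase, rose, and Tgif2 (-0.63), which encodes a SMAD corepressor, fell. Htra1 and Tgif2 were called in all 15 alternatives and Fbn1 in 13. Fbn2, Chrdl2 and Mmp2 were called in 11, and Tob1 and Ctdsp2 in 10.

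Genes known to respond to TGF-beta moved in both directions. Of 24 tested, 5 rose and 8 fell (54.2% called, against 21.1% of all tested genes), and of the 21 that are not among the 48 genes, 5 rose and 6 fell (52.4%). Lox, which encodes a collagen cross-linking enzyme, averaged 228 ± 36.0 CPM in HOM cells and 129 ± 5.96 CPM in WT cells (log2 fold change 0.82, edgeR adjusted p = 0.0035), and Timp1, an inhibitor of matrix proteases, 13.2 ± 2.03 CPM in HOM cells and 5.28 ± 1.47 CPM in WT cells (1.32, adjusted p = 0.0057). Col3a1, a fibrillar collagen, averaged 479 ± 369 CPM in HOM cells and 2647 ± 236 CPM in WT cells (-2.47, adjusted p = 0.0046), and Ccn1, a matricellular protein, 507 ± 88.9 CPM in HOM cells and 929.7 ± 113 CPM in WT cells (-0.87, adjusted p = 0.0059). Several of these genes, the collagens above all, are made mainly by connective tissue cells, whose marker sums were lower in HOM libraries; their part in these values was not tested. Of 16 tested BMP response genes, 0 were called by edgeR, against 21.1% of all tested genes, and 0 by DESeq2, against 19.1%. By limma-voom 2 of them, Hey1 and Bmper, were called, against 29.1%, and 2 had an unadjusted edgeR p under 0.05. Only 8 of the 16 are not among the 48 genes. These 8 also gave 0 edgeR calls and are too few to tell 0 calls from the share of all tested genes.

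Other settings changed how many of the 48 genes passed, and the share of all tested genes that passed changed with them. DESeq2 called 14 of 47 (29.8%), against a background of 19.1%, and limma-voom 19 (40.4%), against 29.1%. With other scaling or another filter the count stayed at 13 (27.7%), against 21.2% with DESeq2 size factors in edgeR, 20% with library totals alone and 20.5% with a filter at 1 CPM in 3 libraries. These settings left the count at or above that of the edgeR fit. Without a filter 17 of 48 genes (35.4%) were called, against 15.7%, with the replicate number as a block 14 (29.8%), against 17.3%, and with a term for Y-linked reads 12 (25.5%), against 13.7%.

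Leaving out a library moved the count further. It was 8 (16.7%) without HOM replicate 1, against 10.9% of all tested genes, 18 (37.5%) without HOM replicate 2, against 27.5%, and 6 (12.5%) without HOM replicate 3, against 10.9%. Among WT libraries it was 8 (17.0%) without replicate 1, against 11.1%, 12 (25%) without replicate 2, against 12.4%, and 9 (19.1%) without replicate 3, against 14.7%. Without HOM and WT replicates 2 together it was 19 (40.4%), against 26.9%. More genes of the pathway passed without HOM replicate 2 than with it, and fewer without any other single library.

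Reads of overlapping genes limit some of these values. Exons of 16 of the 48 genes, 7 of the 13 called, share bases with another gene, and no source used here gives the strand setting. The overlap was 47.3% of the exon length of Fstl3, with Prss57 (5 reads over the HOM libraries and 5 over the WT libraries), 46.7% of that of Bmp5, with Gm26903 (0 reads over the HOM libraries and 2 over the WT libraries), and 5.74% of that of Bmp6, with Txndc5 (1506 reads over the HOM libraries and 2136 over the WT libraries), each on the opposite strand. The other called genes with an overlap, also on the opposite strand, were Ltbp2 (9.34%), Tgfb2 (2.14%) and Acvr1c (1.81%). Tgfb3 overlapped Gm48008 (7.60%) and Gm37804 (4.82%) in the same way.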

How the data were processed

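Whole-number counts of reads per Ensembl gene, not normalised, are what the authors deposited, in a file for each library. The kit was stranded and removed ribosomal RNA, per the labels' protocols. The submitters' processing notes name Trimmomatic 0.32, STAR 2.5.2b, HTSeq 0.6.1 and mm10. No source used here gives the strand setting or the annotation release. Summary lines, 45.0 to 49.8% of the reads of a file, were left out. Symbols, positions and merged exon lengths came from GENCODE M21 (38861 of 39059 identifiers matched). Titles placed each library in HOM or WT, and libraries of a genotype differed by more than sampling noise.

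Counts were fitted with edgeR 4.0.16 in R 4.3.3: filterByExpr (minimum count 10, minimum total 15), TMM factors, the quasi-likelihood test without covariates, and Benjamini-Hochberg adjustment over 14099 genes at 0.05. The spread among libraries had a common biological coefficient of variation of 0.162. The SE is the size of the log2 fold change over the square root of F. Levels are CPM on TMM-scaled totals, compared between genes per kilobase of merged exons; Gm42418 is given as CPM on gene totals. Alternatives were DESeq2 1.42.0, limma-voom 3.58.1 with sample weights, other scaling and filters, a replicate block, a covariate for Y-linked reads, and leaving out libraries. The test was checked on simulated data. The simulation gave every gene the same common spread, so it does not cover genes whose libraries differ widely, such as Acvr1c and Ltbp2.

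The genes, lists and some alternatives were chosen with earlier results of these data known, so counts over lists are descriptions. Values of every library are given for called genes and for the most abundant gene per kilobase of each role where that gene was not called. Of the other lists, up to 4 called genes with the smallest p are named.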

Additional observations from a re-analysis of the deposited data

How the results depend on the processing

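6 of the 13 calls (Tgfb2, Bmp5, Bmp6, Acvr1c, Smurf1 and Fstl1) held in all 15 alternatives, and 0 of the 13 changed direction in any of them. Of the 34 uncalled genes, 27 were called in 0 alternatives and 11 changed direction in at least 1. Replicate numbers as a whole did not pair the libraries (correlations of same-numbered deviations -0.036, 0.022 and -0.096). Of 6 libraries, 2 correlated best with their own number. These were HOM and WT replicates 2, which also had the high Gm42418 levels. With the replicate block, 2437 genes passed, 1024 higher and 1413 lower, and 14 of the 48 genes, 3 higher and 11 lower. DESeq2 called 14 of the 48 genes and limma-voom 19.

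Leaving out 1 library in turn gave 1576 to 4002 called genes in all, 655 to 1764 higher and 881 to 2238 lower. Of the 48 genes it left 6 to 18 called, 2 to 3 higher and 4 to 15 lower: 8 without HOM replicate 1, 6 without HOM replicate 3 and 8 without WT replicate 1. Of the other pathway genes it left 5 to 19, 0 to 3 higher and 4 to 16 lower. TGF-beta response genes gave 9 to 15, 3 to 5 higher and 6 to 10 lower, and BMP response genes 0 to 4, 0 of them higher. With Y-linked reads as a covariate, 1932 genes passed, 793 of them higher, and 1 other pathway gene was higher. Without HOM and WT replicates 2 together, 16 of the 48 genes were lower, 1 other pathway gene was higher and 4 BMP response genes were called, 4 of them lower. limma-voom called 4 other pathway genes higher and 2 BMP response genes, 2 of them lower, and the fit without a filter 2 BMP response genes, 1 higher and 1 lower. The cause of these shifts was not tested.

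Log2 fold changes that changed sign were all of uncalled genes. Without HOM and WT replicates 2 together the values were -0.10 for Inhbb, -0.065 for Acvr1, -0.13 for Tgfbr3, -0.045 for Smurf2 and -0.13 for Fst. limma-voom gave 0.0025 for Smad9, -0.013 for Smurf2 and -0.25 for Fst, the replicate block -0.00099 for Fst, and the Y-linked covariate 0.073 for Smad9 and -0.043 for Fst. Leaving out 1 library gave -0.069 to 0.74 for Inhbb, -0.040 to 0.17 for Bmpr2, -0.031 to 0.28 for Tgfbr3, -0.28 to 0.23 for Smad9, -0.049 to 0.19 for Smad6, -0.014 to 0.087 for Smurf2, -0.31 to 0.26 for Fst, -0.064 to 0.15 for Id1, -0.15 to 0.038 for Id2 and -0.021 to 0.16 for Id3. Smad9 had no value without both replicates 2. Few reads limit Mstn, Smad9, Bmpr1b, Nog and Grem1, and among the other pathway genes Hfe2 and Lefty1.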
